A study of Mus musculus with 6 samples.

Results

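Regulatory T cells (Treg cells) were set against naive T cells here, gene by gene, in wild-type mouse cells. The comparison used 2 Treg libraries and 2 naive libraries from 1 deposited count table, and a gene was kept when at least 10 counts stood in at least 2 of these 4 libraries. This left 14732 of 54532 genes. The Treg samples carried the genotype label WT, the treatment label "no" and the thymus as tissue, and the naive samples carried the same 3 labels. One more type from the same table, 2 Th17 libraries with those labels too, shared the estimate of spread and served only to show whether a Treg level was also apart from Th17 cells. The labels do not say whether the cells were taken directly from tissue or cultured, from how many mice they came, or how old the mice were, so the spread between 2 libraries of a type may be technical. The columns are numbered 1 and 5 within each type, and values below are given in that order.

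Treg cells are CD4 T cells that hold other immune cells in check, and the transcription factor Foxp3 fixes their identity. They depend on interleukin-2 made by other cells, which they bind with a high-affinity receptor, and they act through inhibitory receptors, adenosine, TGF-beta and competition for growth factors. Naive T cells have not yet met their antigen. They rest, recirculate between blood and lymph nodes, and live on interleukin-7 and weak receptor signals.

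The markers went with the labels. Foxp3 stood at 1000.4 and 999.6 CPM in the Treg libraries, against 14.9 and 13.3 CPM in the naive libraries. Ikzf4, which encodes Eos, a partner of Foxp3 in repressing genes, stood at 343 and 325 CPM in the Treg libraries, against 10.5 and 8.95 CPM in the naive libraries, a log2 fold change of 5.10 ± 0.19 (± standard error, Treg over naive throughout; edgeR quasi-likelihood F-test with Benjamini-Hochberg adjusted p = 6.75e-11). Where a gene is said to rise or fall by a number alone, that number is on the log2 scale and the adjusted p was under 0.05. CPM are counts scaled to one fixed library total, with library sizes adjusted by TMM, a trimmed mean of ratios between libraries. Cd4, the co-receptor of helper T cells, was present in both types, at 243 and 234 CPM in the Treg libraries, against 776 and 695 CPM in the naive libraries, and was lower in Treg cells (-1.63 ± 0.22, adjusted p = 2.43e-05). Cd8a, which marks the killer lineage, stood at 9.13 and 13.3 CPM in the Treg libraries, against 3.01 and 3.69 CPM in the naive libraries (1.74 ± 0.32, adjusted p = 0.000489). Cd8b1, the other CD8 marker, ran the other way by the fit that the authors deposited, with a log2 fold change of -1.09. Of the genes of immature thymocytes, Dntt, which adds bases at receptor gene joints, stood at 0.227 and 0.216 CPM in the Treg libraries, against 8.14 and 11.5 CPM in the naive libraries, and the recombinase gene Rag1 at 2.38 and 2.22 CPM in the Treg libraries, against no count in the naive libraries. Rag2 and Ptcra did not reach the count minimum.

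Markers of other cell types differed between the types, in both directions. Of 16 B cell markers, 14 were lower in Treg cells and none was higher. All 16 summed to 648 and 513 CPM in the Treg libraries, against 550.2 and 574 CPM in the naive libraries, and the sums, most of each from Ighm, overlapped. Ms4a1, the B cell antigen CD20, stood at 0 CPM in both Treg libraries, against 7.62 and 10.7 CPM in the naive libraries. The constant region gene Ighm stood at 623 and 492 CPM in the Treg libraries, against 433 and 446 CPM in the naive libraries, and did not pass the test (0.34 ± 0.21, adjusted p = 0.195). Bank1, a B cell adaptor, stood at 9.59 and 9.46 CPM in the Treg libraries, against 5.70 and 7.65 CPM in the naive libraries and did not pass it either (0.51 ± 0.39, adjusted p = 0.301). Myeloid and dendritic markers were lower in Treg cells for 10 of the 13 kept of 18 listed, and the 18 summed to 63.5 and 76.0 CPM in the Treg libraries, against 94.5 and 127.6 CPM in the naive libraries. Of 17 markers of natural killer, CD8 and gamma-delta T cells 16 were kept, 3 were higher (Xcl1, Nkg7 and Cd8a) and 9 lower. All 17 summed to 191 and 264 CPM in the Treg libraries, against 91.95 and 135 CPM in the naive libraries. The sum was thus higher in Treg cells while more members were lower. Most of each Treg sum came from Xcl1 alone, and little of either naive sum did. Ncr1 and Klrb1c had no count in either Treg library, and their calls as lower were lost with DESeq2 (adjusted p = 0.202 and 0.174). Of 15 thymic stromal markers 5 were kept, 2 higher and 2 lower, with 1 higher without the first Treg library and 1 lower without the second Treg or the second naive library. Epcam was higher, at 79.8 and 67.999 CPM in the Treg libraries, against 1.60 and 4.99 CPM in the naive libraries (4.50 ± 0.36, adjusted p = 1.37e-07), and Pecam1, a gene of vessels that T cells also express, was lower (-1.78 ± 0.17, adjusted p = 6.93e-07). All 15 summed to 184 and 154 CPM in the Treg libraries, against 303 and 274 CPM in the naive libraries. The 16 genes of immature thymocytes summed to 1047 and 960.0 CPM in the Treg libraries, against 1768 and 1706 CPM in the naive libraries, with 5 of 13 kept genes higher (3 without the first Treg library) and 6 lower. Of 10 platelet and red cell markers 3 were kept and none of the 3 was called. At an unadjusted p under 0.05 the count was also 0 of 3, and by DESeq2 0, but without the filter on low counts 1 of the 3 was called higher. Hbb-bs had 34 counts and Hbb-bt 18 in Treg cells, all in the library numbered 5, against 4 and 0 counts in naive cells. In such bulk samples, fewer cells of a type and less RNA per cell cannot be told apart.

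Both types were sequenced to about the same depth, 16877130 and 17901331 counts in the Treg libraries and 16458939 and 16569280 in the naive libraries. A floor of 3 counts corresponds to 0.170 and 0.162 CPM in the Treg libraries and to 0.192 and 0.205 CPM in the naive libraries. Log-scale levels correlated across genes at r = 0.986 between the Treg libraries, 0.981 between the naive libraries and at most 0.862 between a Treg and a naive library. The share of counts from mitochondrial genes was 1.60% and 1.89% in the Treg libraries and 3.42% and 3.45% in the naive libraries.

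At an adjusted p under 0.05, 6736 of the 14732 genes (45.7%) differed: 3619 (24.6%) were higher in Treg cells and 3117 (21.2%) were lower. A change of at least 2-fold was found in 4105 of them (27.9%), of which 2328 (15.8%) were higher and 1777 (12.1%) lower. Changes of at least 8-fold were counted in 820 genes that were higher and 412 that were lower, and of at least 32-fold in 336 and 140. Scaling by total count in place of TMM gave 4478 higher and 2247 lower, so that 66.6% of the calls were higher in place of 53.7%. That scaling moved the median log2 fold change of all kept genes to 0.166, against -0.016 with TMM, and changes below are relative to the TMM scale. Without the first Treg library 1957 genes were lower and 2736 higher. Since so many kept genes passed the test, a share of a list near 45.7% says nothing particular about that list. Of the 2947 shortest kept genes 355 were higher and 748 lower, with a median of -0.39. In the 2947 longest the median was 0.09. The part of gene length in the lists below was not tested. The libraries of the 2 types did not overlap in 10763 genes (73.1%), and unless a sentence says otherwise they did not overlap in any gene named below as higher or lower.

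By the authors' own fit, in the authors' deposited table, 3132 of these genes were called higher and 2435 lower. Of the genes called here, 5534 were called in the same direction by the authors' deposited table and 0 in the opposite one.

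**Figure D1:**
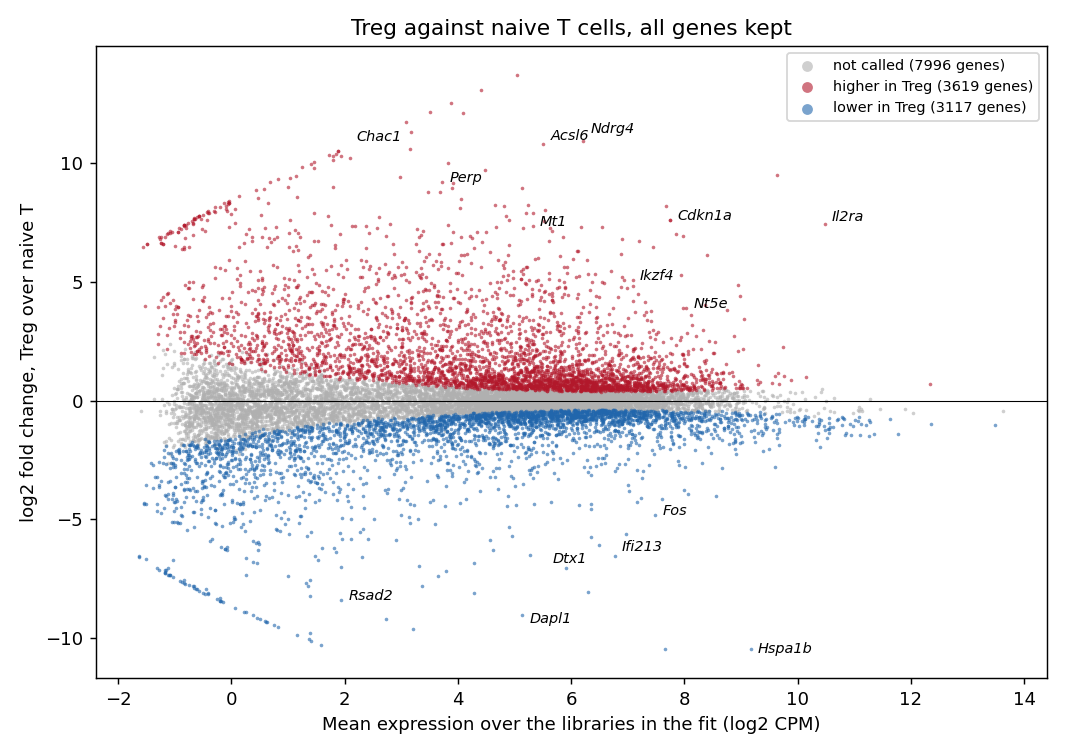
Each point is 1 of 14732 genes, by mean expression over all 6 libraries of the fit (horizontal, log2 CPM) and log2 fold change of Treg over naive cells (vertical). Red points are the 3619 genes higher in Treg cells, blue points the 3117 lower ones and grey points the 7996 that were not called. The straight rows of points at the edges are genes with no count in one of the 2 types.

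The interleukin-2 receptor is built from an alpha chain that raises affinity and from beta and gamma chains that signal through Jak kinases to Stat5. The chains moved in different directions. Il2rb, the beta chain, rose to 734 and 637 CPM in the Treg libraries, against 47.3 and 49.1 CPM in the naive libraries (3.83 ± 0.19, adjusted p = 1.31e-09). Il2rg, the gamma chain shared by several cytokine receptors, fell to 176 and 175 CPM in the Treg libraries, against 362 and 408 CPM in the naive libraries (-1.13 ± 0.16, adjusted p = 5.15e-05). Stat5a stood at 236 and 245 CPM in Treg cells, against 73.9 and 57.7 CPM in naive cells, a log2 fold change of 1.87 ± 0.17 (adjusted p = 4.83e-07). Stat4, which relays interleukin-12, fell by 1.71 on the log2 scale. Of the 14 genes of this group 7 were higher, 3 were lower and the median was 0.33.

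Among 15 feedback genes of cytokine signalling 7 rose and 3 fell. Cish, a classical Stat5 target that damps receptor signals, stood at 265 and 286 CPM in the Treg libraries, against 23.96 and 17.02 CPM in the naive libraries (3.75 ± 0.19, adjusted p = 1.73e-09). Socs1, which inhibits Jak kinases, stood at 158 and 206 CPM in the Treg libraries, against 38.3 and 35.6 CPM in the naive libraries (2.30 ± 0.17, adjusted p = 7.14e-08). Pim1, a Stat-induced kinase, rose by 1.58. Socs3 stood at 139.6 and 128 CPM in the Treg libraries, against 201 and 135 CPM in the naive libraries, and the values of the 2 types overlapped (-0.33 ± 0.21, adjusted p = 0.23). The 3 members that fell were the phosphatase genes Ptpn22, Ptpn6 and Ptpn2, by 0.62, 0.53 and 0.47, and none of these 3 calls held under total count scaling.

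Receptors for other cytokines split, with 7 of 25 kept genes higher and 8 lower (9 and 7 under total count scaling). Tgfbr1, the signalling receptor of TGF-beta, rose to 267 and 352 CPM in the Treg libraries, against 46.2 and 43.7 CPM in the naive libraries (2.78 ± 0.18, adjusted p = 1.69e-08). In Th17 cells it stood at 47.6 and 41.8 CPM (Treg over Th17 2.79 ± 0.18, adjusted p = 2.31e-08). Il10ra, a chain of the interleukin-10 receptor, stood at 116 and 101 CPM in the Treg libraries, against 25.3 and 25.5 CPM in the naive libraries (2.09 ± 0.21, adjusted p = 1.65e-06). Ifngr1, for interferon-gamma, stood at 323 and 309 CPM in the Treg libraries, against 106 and 99.4 CPM in the naive libraries (1.62 ± 0.18, adjusted p = 5.25e-06). Il6ra, the interleukin-6 receptor, fell to 38.97 and 38.5 CPM in the Treg libraries, against 330.1 and 258 CPM in the naive libraries (-2.92 ± 0.18, adjusted p = 9.69e-09). Il18r1 fell by 1.80. None of the 7 receptor calls named in these paragraphs was lost under an alternative setting.

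In the TNF receptor superfamily 9 of 21 kept genes rose and 1 fell, with a median of 0.55. Tnfrsf4, the costimulatory receptor OX40, stood at 102 and 103 CPM in the Treg libraries, against 13.01 and 14.9 CPM in the naive libraries (2.88 ± 0.17, adjusted p = 7.03e-09). Tnfrsf9, known as 4-1BB, stood at 72.8 and 88.2 CPM in the Treg libraries, against 16.02 and 16.5 CPM in the naive libraries (2.31 ± 0.22, adjusted p = 9.44e-07), and in Th17 cells at 4.52 and 7.37 CPM (Treg over Th17 3.76 ± 0.24, adjusted p = 2.04e-08). Tnfrsf1b, the TNF receptor that Treg cells use to expand, stood at 236 and 209 CPM in the Treg libraries, against 49.1 and 40.2 CPM in the naive libraries (2.31 ± 0.17, adjusted p = 4.92e-08). Tnfrsf18, known as GITR, rose by 1.21, and Tnfrsf13b, a receptor better known from B cells, by 2.45. Cd27 did not pass the test, with 187 and 181 CPM in the Treg libraries, against 267 and 280.2 CPM in the naive libraries (-0.57 ± 0.25, adjusted p = 0.0794), but was called lower by limma-voom (adjusted p = 0.0333). Among the ligands of the family, 6 of 11 rose and 2 fell (4 without the first naive library). Lta, lymphotoxin alpha, stood at 282 and 347 CPM in the Treg libraries, against 21.1 and 26.6 CPM in the naive libraries (3.72 ± 0.20, adjusted p = 2.61e-09). Tnfsf11, the ligand RANKL, stood at 17.6 and 24.3 CPM in the Treg libraries, against 3.84 and 4.99 CPM in the naive libraries (2.24 ± 0.33, adjusted p = 6.09e-05).

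Checkpoint and CD28 family receptors rose in 9 and fell in 4 of 21 kept genes. Pdcd1lg2, a ligand of PD-1, stood at 15.1 and 18 CPM in the Treg libraries, against 0.833 and 1.44 CPM in the naive libraries (3.87 ± 0.35, adjusted p = 5.32e-07). Tigit stood at 13.8 and 7.84 CPM in the Treg libraries, against 1.92 and 1.30 CPM in the naive libraries (2.74 ± 0.53, adjusted p = 0.000752). Lag3 rose by 1.39 and Icos by 0.94, and Icos was lower in Treg than in Th17 cells (Treg over Th17 -1.42 ± 0.17, adjusted p = 1.51e-05). Btla, an inhibitory receptor of resting lymphocytes, fell to 23.5 and 25.6 CPM in the Treg libraries, against 194 and 189.6 CPM in the naive libraries (-2.96 ± 0.16, adjusted p = 3.38e-09). Cd226, the activating counterpart of Tigit, fell by 1.84. Cd28 itself stood at 241 and 221 CPM in the Treg libraries, against 292 and 317 CPM in the naive libraries and did not pass the test (-0.40 ± 0.17, adjusted p = 0.0609), but was called lower by DESeq2 (adjusted p = 0.0322). The SLAM and Ly6 surface proteins were lower in 13 of 16 kept genes, with a median of -1.93. Slamf6 stood at 44.5 and 38.1 CPM in the Treg libraries, against 216 and 217 CPM in the naive libraries (-2.39 ± 0.16, adjusted p = 1.97e-08), and its adaptor Sh2d1a, known as SAP, fell by 3.20, whereas Slamf1 rose by 1.04. Ly86 and Ly6d, the members with the largest falls, are genes of B cells and fell together with the B cell markers, whose part in the result was not tested.

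**Figure D2:**
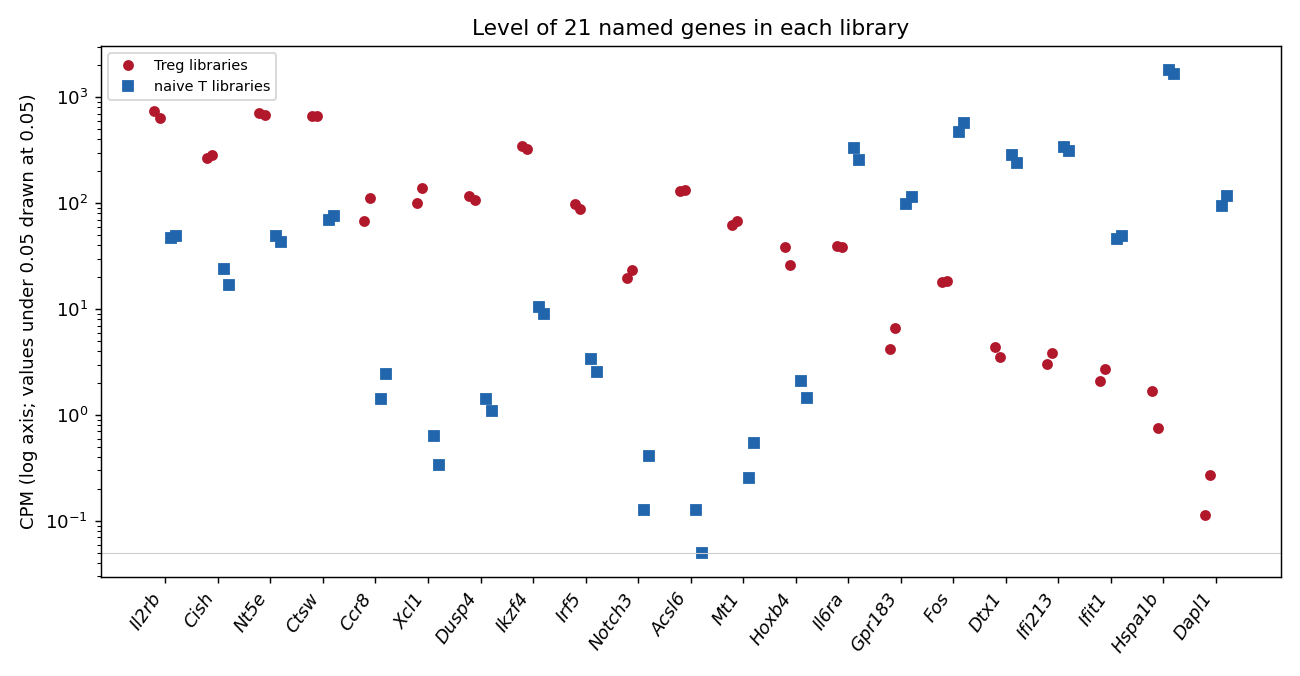
Level of 21 named genes in each library, in CPM on a log axis, with the 2 Treg libraries (red circles) left of the 2 naive libraries (blue squares). The first 13 genes, from Il2rb to Hoxb4, stand higher in both Treg libraries and the last 8, from Il6ra to Dapl1, stand lower.

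Of 19 listed mediators of suppression 15 were kept, 8 rose and 5 fell. Nt5e, the ectoenzyme CD73 that makes adenosine outside the cell, stood at 713 and 672 CPM in the Treg libraries, against 49.5 and 42.8 CPM in the naive libraries (3.91 ± 0.20, adjusted p = 1.33e-09). In Th17 cells it stood at 37.9 and 49.6 CPM (Treg over Th17 3.98 ± 0.20, adjusted p = 1.61e-09). Entpd1, the enzyme CD39 one step before it, stood at 4.71 and 7.51 CPM in the Treg libraries, against 0.769 and 1.57 CPM in the naive libraries (2.39 ± 0.43, adjusted p = 0.000385). Lgals3, galectin-3, rose to 105 and 94.2 CPM in the Treg libraries, against 1.28 and 1.84 CPM in the naive libraries (5.99 ± 0.24, adjusted p = 1.86e-10). Gzmb, a granule protease, stood at 14.4 and 14.3 CPM in the Treg libraries, against 2.43 and 2.80 CPM in the naive libraries, whereas Prf1, which lets granzymes into a target, fell to 12.7 and 14 CPM in the Treg libraries, against 33.3 and 34.2 CPM in the naive libraries (-1.34 ± 0.30, adjusted p = 0.00224). Prf1 and Gzma are also genes of natural killer cells, whose marker list had 3 members higher and 9 lower in the Treg libraries, and their part was not tested. Ebi3, Il12a, Areg and Itgb8 did not reach the count minimum.

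Of 22 helper cytokine genes 11 were kept, 8 of these rose and 2 fell. Il21, a cytokine of follicular helper and Th17 cells, had no count in Treg cells and 59 in naive cells, and was at least 11.6-fold lower by a floor of 3 counts per library. Il16, a chemoattractant of CD4 cells, fell by 1.25. Ifng, Il2, Il4, Il17a and Il22 were among the 11 that were not kept. Xcl1, a chemokine-like cytokine that attracts cross-presenting dendritic cells, stood at 99.7 and 138 CPM in the Treg libraries, against 0.641 and 0.342 CPM in the naive libraries (7.89 ± 0.32, adjusted p = 5.09e-10), with no count in Th17 cells. Lif, a cytokine of the interleukin-6 family, stood at 22.1 and 46.9 CPM in the Treg libraries, against 1.03 and 0.82 CPM in the naive libraries (5.21 ± 0.39, adjusted p = 7.78e-08). Il3 had no count in naive cells and was at least 6.83-fold higher in Treg cells against the same floor. Among chemokines, Ccl1, the ligand of Ccr8, stood at 5.22 and 13.5 CPM in the Treg libraries, against no count in the naive libraries and was at least 47-fold higher by the same floor, and its adjusted p was 6.8e-06 by edgeR but 0.0938 by DESeq2. Ccl3 stood at 23.7 and 27.4 CPM in the Treg libraries, against 0.513 and 1.98 CPM in the naive libraries (4.36 ± 0.42, adjusted p = 9.05e-07). Ccl4 rose by 4.61.

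Chemokine receptors changed in both directions, and with the chemokines 10 of 19 kept genes rose and 4 fell. Ccr8, a receptor carried by Treg cells in skin and tumours, stood at 68.4 and 112 CPM in the Treg libraries, against 1.41 and 2.46 CPM in the naive libraries (5.54 ± 0.31, adjusted p = 3.5e-09). Ccr4, another receptor of tissue-homing T cells, stood at 21.3 and 18.6 CPM in the Treg libraries, against 2.43 and 1.37 CPM in the naive libraries (3.38 ± 0.25, adjusted p = 5.88e-08), and it was higher still in Th17 cells, at 129 and 115 CPM. Cxcr3, the receptor of interferon-induced chemokines, rose by 1.76. Cxcr4, for the stromal chemokine that retains cells in bone marrow, fell to 38.6 and 35.7 CPM in the Treg libraries, against 182 and 216 CPM in the naive libraries (-2.42 ± 0.19, adjusted p = 1.03e-07). Genes of lymph node recirculation were mixed, and 10 of the 21 kept trafficking genes fell while 7 rose. S1pr1, which lets T cells leave lymph nodes, stood at 134 and 129 CPM in the Treg libraries, against 469.6 and 559 CPM in the naive libraries (-1.97 ± 0.17, adjusted p = 3.49e-07). Klf2, the factor that drives S1pr1, stood at 204 and 165 CPM in the Treg libraries, against 412 and 402 CPM in the naive libraries (-1.14 ± 0.18, adjusted p = 0.00011). Gpr183, which steers cells to the edge of follicles, fell to 4.20 and 6.70 CPM in the Treg libraries, against 97.7 and 115 CPM in the naive libraries (-4.28 ± 0.30, adjusted p = 3.39e-08). Fut7, which builds ligands for the vascular selectins of inflamed skin, rose to 7.55 and 5.84 CPM in the Treg libraries, against 0.577 and 0.478 CPM in the naive libraries (3.64 ± 0.32, adjusted p = 3.92e-07).

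Integrins and adhesion genes split into 12 that rose and 11 that fell, of 25 kept. Itgb1, the beta chain of the collagen and fibronectin receptors, stood at 173 and 214 CPM in the Treg libraries, against 56.3 and 62.05 CPM in the naive libraries (1.71 ± 0.17, adjusted p = 1.09e-06). Itgav, whose heterodimers release active TGF-beta, stood at 88.5 and 78.4 CPM in the Treg libraries, against 29.4 and 22.6 CPM in the naive libraries (1.68 ± 0.17, adjusted p = 1.89e-06). Itga4 and Itgb7, which together bind gut vessels, fell by 1.52 and 0.66. The Itga4 call did not hold with DESeq2 (adjusted p = 0.0598), and the Itgb7 call was lost without either Treg library (adjusted p = 0.0756 and 0.0736). Alcam, an adhesion molecule of activated lymphocytes, stood at 55.2 and 37.9 CPM in the Treg libraries, against 1.28 and 2.46 CPM in the naive libraries (4.64 ± 0.31, adjusted p = 2.34e-08). Vcam1, a gene of stroma and macrophages, had 2 counts in Treg cells and 242 in naive cells, a ratio of 0.00692 (95% counting interval 0.000833 to 0.0253). Receptors for small molecules included P2ry1, a receptor for ADP, at 23.997 and 40.4 CPM in the Treg libraries, against 0 and 0.137 CPM in the naive libraries, a ratio of 490.1 (95% counting interval 135 to 4052, adjusted p = 1.32e-08). Adora2b, a receptor for adenosine, had no count in naive cells and was at least 18.4-fold higher, whereas Adora2a fell by 1.45.

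Of 35 genes of proximal signalling from the T cell receptor 15 fell and 3 rose (1 without the first Treg library), with a median of -0.23, which was -0.05 under total count scaling. Prkcq, the kinase PKC-theta at the centre of the immunological synapse, stood at 144 and 169 CPM in the Treg libraries, against 474 and 477 CPM in the naive libraries (-1.60 ± 0.17, adjusted p = 3.5e-06). Rasgrp2, which activates Rap1 for adhesion, fell to 54.2 and 45.03 CPM in the Treg libraries, against 787 and 705 CPM in the naive libraries (-3.91 ± 0.27, adjusted p = 2.8e-08). Themis, an adaptor needed for thymocyte selection, fell by 1.86. Dgka, which removes the second messenger diacylglycerol, stood at 537 and 416 CPM in the Treg libraries, against 1890.2 and 1591 CPM in the naive libraries (-1.87 ± 0.23, adjusted p = 9.85e-06). The kinase Zap70 stood at 241 and 198 CPM in the Treg libraries, against 259 and 215 CPM in the naive libraries, the values of the types overlapped, and it did not pass the test (-0.11 ± 0.17, adjusted p = 0.621). Ubash3b, a phosphatase that restrains Zap70, rose to 183 and 165 CPM in the Treg libraries, against 33.6 and 40.9 CPM in the naive libraries (2.22 ± 0.16, adjusted p = 6.36e-08). The receptor genes themselves fell: Trac stood at 269 and 264 CPM in the Treg libraries, against 773 and 989 CPM in the naive libraries (-1.73 ± 0.19, adjusted p = 4.56e-06), and 73 of 91 variable gene segments and 41 of 45 joining segments were lower, with 0 higher and medians of -1.85 and -2.09. The variable segments summed to 262 and 287 CPM in the Treg libraries, against 774 and 1028 CPM in the naive libraries. Near-identical segments share reads, so single segments are uncertain.

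Genes that respond to antigen receptor signals ran the other way, and 16 of 22 rose while 5 fell, with a median of 1.25. Dusp4, a phosphatase that switches off the kinase ERK, stood at 118 and 106 CPM in the Treg libraries, against 1.41 and 1.09 CPM in the naive libraries (6.47 ± 0.27, adjusted p = 2.04e-10). Spry1, a Sprouty inhibitor of the same pathway, stood at 37.6 and 44.9 CPM in the Treg libraries, against 2.50 and 1.64 CPM in the naive libraries (4.31 ± 0.28, adjusted p = 1.63e-08), and it was low in Th17 cells, at 1.74 and 1.47 CPM. Nr4a2, an orphan nuclear receptor induced by antigen, stood at 39.7 and 35.03 CPM in the Treg libraries, against 4.16 and 4.10 CPM in the naive libraries (3.17 ± 0.24, adjusted p = 7.95e-08). Dusp6, a phosphatase specific for ERK, stood at 39.1 and 51.1 CPM in the Treg libraries, against 39.98 and 48.3 CPM in the naive libraries, and the types overlapped (0.03 ± 0.23, adjusted p = 0.92). Egr1 rose by 1.11. Dusp1 went against the group and fell to 10.6 and 9.9999 CPM in the Treg libraries, against 178 and 241 CPM in the naive libraries (-4.35 ± 0.20, adjusted p = 7.45e-10). Dusp10 fell by 2.17.

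AP-1 factors, dimers that cooperate with NFAT at activated T cell genes, exchanged members. Fos fell to 17.9 and 18.5 CPM in the Treg libraries, against 465 and 568 CPM in the naive libraries (-4.83 ± 0.19, adjusted p = 1.81e-10). Junb stood at 199 and 152 CPM in the Treg libraries, against 1125 and 1337 CPM in the naive libraries (-2.81 ± 0.21, adjusted p = 8.3e-08). Jun stood at 499 and 396 CPM in the Treg libraries, against 526 and 511 CPM in the naive libraries, which did not pass the test (-0.21 ± 0.17, adjusted p = 0.34). Atf3 rose to 9.25 and 8.43 CPM in the Treg libraries, against 0.192 and 0.342 CPM in the naive libraries (5.02 ± 0.43, adjusted p = 2.77e-07). Jdp2 and Batf3 rose by 4.44 and 3.50. Fos, Junb and Dusp1 are immediate early genes, which switch on quickly after a stimulus, and how the cells were handled is not given in the labels. Of the NF-kappaB genes 8 rose and 5 fell of 21, with 4 higher without the first Treg library and 5 higher and 7 lower without the second naive library. The subunit genes Nfkb1 and Nfkb2 rose by 1.10 and 1.21, and the inhibitor genes Nfkbia and Tnfaip3 fell by 0.79 and 2.70. Tnfaip3, known as A20, stood at 38.5 and 39.4 CPM in the Treg libraries, against 292 and 214 CPM in the naive libraries (-2.70 ± 0.18, adjusted p = 2.63e-08).

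Ion channels of T cells split evenly, with 9 of 24 higher and 7 lower (4 without the second Treg library). Kcnk5 and Kcnk6, background potassium channels, rose by 4.95 and 5.28, whereas Kcna3, the main voltage-gated potassium channel of T cells, stood at 16.4 and 16.97 CPM in the Treg libraries, against 45.7 and 40.1 CPM in the naive libraries (-1.36 ± 0.19, adjusted p = 4.16e-05). Atp2b4, a pump that removes calcium from the cell, stood at 64.4 and 52.9 CPM in the Treg libraries, against 2.24 and 1.16 CPM in the naive libraries (5.09 ± 0.26, adjusted p = 1.48e-09). Orai2 and Stim1, parts of the store-operated calcium entry machinery, fell by 1.44 and 0.66. In the PI3K pathway 14 of 31 genes rose and 9 fell. Phlpp1, a phosphatase that removes an activating phosphate from Akt, stood at 35.2 and 23.5 CPM in the Treg libraries, against 11.3 and 5.88 CPM in the naive libraries (1.76 ± 0.30, adjusted p = 0.000252). Foxo1, the factor Akt keeps out of the nucleus, stood at 213 and 180.5 CPM in the Treg libraries, against 237 and 180.1 CPM in the naive libraries, and the types overlapped (-0.09 ± 0.18, adjusted p = 0.716).

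Of 49 kept transcription factors of T cell lineages 26 rose and 8 fell (5 without the first Treg library), with a median of 0.59. Maf, a driver of interleukin-10 in several T cell types, stood at 211 and 202 CPM in the Treg libraries, against 13.2 and 11.96 CPM in the naive libraries (4.03 ± 0.19, adjusted p = 7.51e-10). Ahr, the aryl hydrocarbon receptor, stood at 29.3 and 34.7 CPM in the Treg libraries, against 3.08 and 2.12 CPM in the naive libraries (3.62 ± 0.22, adjusted p = 8.7e-09). Tbx21, the Th1 factor T-bet, stood at 12.4 and 10.1 CPM in the Treg libraries, against 1.67 and 2.12 CPM in the naive libraries (2.56 ± 0.38, adjusted p = 7.99e-05). Gata3, the Th2 factor, stood at 28.99 and 34 CPM in the Treg libraries, against 37.4 and 33.6 CPM in the naive libraries, and the types overlapped (-0.17 ± 0.27, adjusted p = 0.628). Runx2 and Hivep3 rose by 3.63 and 3.88, and Sox4, a TGF-beta responsive factor, by 3.12. Satb1, which organises chromatin in thymocytes, stood at 248 and 244 CPM in the Treg libraries, against 788 and 663 CPM in the naive libraries (-1.56 ± 0.19, adjusted p = 1.18e-05). Zbtb7b, known as ThPOK, fell by 1.53.

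Interferon regulatory factors diverged within the family. Irf5, a factor best known from myeloid cells, stood at 97.6 and 87.5 CPM in the Treg libraries, against 3.40 and 2.53 CPM in the naive libraries (4.96 ± 0.23, adjusted p = 7.51e-10). In Th17 cells it stood at 11.9 and 14.5 CPM. Irf7, which amplifies the type I interferon response, fell to 8.79 and 8.11 CPM in the Treg libraries, against 97.3 and 96.5 CPM in the naive libraries (-3.52 ± 0.24, adjusted p = 2.75e-08). Irf1 stood at 221 and 249 CPM in the Treg libraries, against 267 and 276 CPM in the naive libraries and did not pass the test (-0.21 ± 0.16, adjusted p = 0.294). Of 21 kept nuclear receptors 8 rose and 0 fell at the threshold. Vdr, the vitamin D receptor, stood at 9.98 and 10.2 CPM in the Treg libraries, against 0.384 and 0.273 CPM in the naive libraries (4.90 ± 0.41, adjusted p = 2.34e-07). Nr2f6 rose by 2.80. At an unadjusted p under 0.05, 2 further nuclear receptors were lower.

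Notch genes rose in 10 and fell in 5 of 24. Notch3, a receptor of the family, stood at 19.9 and 23.2 CPM in the Treg libraries, against 0.128 and 0.41 CPM in the naive libraries (6.30 ± 0.42, adjusted p = 2.18e-08). Nrarp, a feedback inhibitor that Notch itself induces, stood at 14.01 and 17.4 CPM in the Treg libraries, against 1.60 and 0.82 CPM in the naive libraries (3.68 ± 0.37, adjusted p = 1.37e-06). Rbpj, the DNA-binding partner of Notch, rose by 2.71. Dtx1, an E3 ligase linked to Notch and to T cell anergy, ran the other way and fell to 4.37 and 3.51 CPM in the Treg libraries, against 287 and 240.0 CPM in the naive libraries (-6.06 ± 0.21, adjusted p = 5.73e-11), while its relative Dtx4 rose to 56.2 and 60.6 CPM in the Treg libraries, against 9.29 and 5.06 CPM in the naive libraries (3.02 ± 0.27, adjusted p = 3.81e-07). In the TGF-beta pathway 14 of 26 kept genes rose and 3 fell (1 under total count scaling and 1 without the second Treg library), with a median of 1.14. Tgfb1 itself stood at 270.3 and 233 CPM in the Treg libraries, against 106 and 99.2 CPM in the naive libraries (1.30 ± 0.16, adjusted p = 1.46e-05). Furin, a protease that processes the TGF-beta precursor, stood at 414 and 315 CPM in the Treg libraries, against 36.01 and 30.95 CPM in the naive libraries (3.44 ± 0.23, adjusted p = 1.79e-08). Ltbp3, which anchors latent TGF-beta, stood at 2.67 and 2.54 CPM in the Treg libraries, against 0.32 and 0.0683 CPM in the naive libraries (3.67 ± 0.68, adjusted p = 0.000474). Smad7, a feedback inhibitor of the pathway, stood at 215 and 179 CPM in the Treg libraries, against 237 and 175 CPM in the naive libraries, and the types overlapped (-0.07 ± 0.18, adjusted p = 0.787). Bmpr2, a receptor for bone morphogenetic proteins, stood at 122 and 126 CPM in the Treg libraries, against 6.47 and 4.92 CPM in the naive libraries (4.44 ± 0.20, adjusted p = 4.86e-10).

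Interferon-stimulated genes fell as a group. Of 46 kept genes 38 were lower in Treg cells, 2 were higher, and the median was -2.01 beside -0.016 over all genes. Rsad2, the antiviral enzyme viperin, had 1 count in Treg cells and 353 in naive cells, a ratio of 0.00237 (95% counting interval 5.99e-05 to 0.0133). Ifit1, which binds foreign RNA caps, stood at 2.10 and 2.70 CPM in the Treg libraries, against 45.7 and 48.7 CPM in the naive libraries (-4.29 ± 0.25, adjusted p = 6.18e-09). Isg15, a ubiquitin-like modifier, stood at 1.48 and 1.78 CPM in the Treg libraries, against 27.1 and 36.8 CPM in the naive libraries (-4.28 ± 0.30, adjusted p = 3.77e-08). Oas2, which senses double-stranded RNA, stood at 0.681 and 3.62 CPM in the Treg libraries, against 90.7 and 85.3 CPM in the naive libraries (-5.34 ± 0.45, adjusted p = 2.41e-07). Usp18, which ends receptor signalling, fell by 2.74. Stat2, which carries the interferon signal, rose by 0.84 on the log2 scale. In Th17 cells Ifit1 and Oas2 were lower still, at 0.218 and 0.328 CPM and 0.109 and 0.546 CPM.

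The DNA element through which these genes respond to type I interferon, the ISRE, has a core of GAAA, any 2 bases and GAAA again. RefSeq promoters of build GRCm38.p6 were at hand for 33 of the 46 genes, taking the 250 bases before the start and both strands. The core was in 13 of the 33 (39.4%), against 270 of 9946 promoters of kept genes (2.71%). All 13 genes with a match and 16 of the other 20 were called lower or higher. The promoters of called genes with large changes and a match in the last 150 bases are shown as examples. Each line gives the 150 bases before the start, 5′ to 3′ on the gene's strand, with the core in capitals also where it lies on the opposite strand and reads as its reverse complement. The Rsad2 bases lie at chr12:26456453-26456602 on the minus strand, those of Ifit1bl1 at chr19:34601969-34602118 on the minus strand and those of Ifit1 at chr19:34640739-34640888 on the plus strand.
Rsad2: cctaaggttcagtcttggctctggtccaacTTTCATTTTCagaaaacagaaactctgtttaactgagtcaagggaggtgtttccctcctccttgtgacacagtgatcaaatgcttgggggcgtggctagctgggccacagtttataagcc
Ifit1bl1: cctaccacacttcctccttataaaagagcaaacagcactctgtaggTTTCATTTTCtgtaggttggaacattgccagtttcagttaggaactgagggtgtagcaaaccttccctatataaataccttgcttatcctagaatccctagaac
Ifit1: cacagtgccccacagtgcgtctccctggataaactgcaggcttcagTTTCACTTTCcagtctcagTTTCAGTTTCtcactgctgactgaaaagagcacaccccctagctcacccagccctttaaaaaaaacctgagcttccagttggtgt
Ifit1 holds the core at 2 places. Ifit1bl1, a near relative of Ifit1 that can share reads with it, stood at 1.02 and 2.49 CPM in the Treg libraries, against 83.7 and 101 CPM in the naive libraries (-5.70 ± 0.32, adjusted p = 8.49e-09). A match describes letters in the promoter and shows no binding in these cells.

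The PYHIN genes, a cluster of interferon-inducible sensors of DNA on mouse chromosome 1, fell further. Of 8 kept genes 7 were lower, with a median of -3.50. Ifi213 stood at 3.06 and 3.89 CPM in the Treg libraries, against 341 and 309 CPM in the naive libraries (-6.54 ± 0.21, adjusted p = 6.75e-11). Ifi208 stood at 1.36 and 1.35 CPM in the Treg libraries, against 182 and 177 CPM in the naive libraries (-7.04 ± 0.22, adjusted p = 6.75e-11), and neither had a count in Th17 cells. Members of the cluster are alike in sequence, so single members are uncertain. Guanylate-binding and immunity-related GTPases, most of which respond to interferon-gamma, divided evenly into 7 higher and 7 lower of 17. Gbp10 stood at 0.511 and 1.41 CPM in the Treg libraries, against 8.07 and 10.2 CPM in the naive libraries (-3.23 ± 0.48, adjusted p = 6.84e-05). Igtp, known as Irgm3, stood at 418 and 453 CPM in the Treg libraries, against 185 and 174 CPM in the naive libraries (1.28 ± 0.16, adjusted p = 1.82e-05) and Gbp3 rose by 1.57. The Gimap genes, GTPases of lymphocyte survival, were lower in 7 of 8. Gimap6 stood at 259.5 and 205 CPM in the Treg libraries, against 1096 and 1119 CPM in the naive libraries (-2.25 ± 0.20, adjusted p = 4.77e-07).

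Antigen presentation genes were lower in 18 of 26 and higher in 4 (2 without any 1 of the 4 libraries). Of the class II genes, H2-Aa had 1 count in Treg cells and 828 in naive cells, a ratio of 0.00101 (95% counting interval 2.56e-05 to 0.00565). H2-Ab1 had 3 counts in Treg cells and 615 in naive cells, a ratio of 0.00408 (95% counting interval 0.00084 to 0.012). H2-Eb1 fell by 5.17. They are genes of B cells and dendritic cells, whose markers were lower in the Treg libraries too. The part of those cells was not tested. H2-DMa, which loads peptides onto class II, ran the other way and stood at 198 and 248 CPM in the Treg libraries, against 19.4 and 25.5 CPM in the naive libraries (3.31 ± 0.20, adjusted p = 6.67e-09), and in Th17 cells at 14.1 and 17.1 CPM. Class I fell less. H2-K1 stood at 2217 and 2258 CPM in the Treg libraries, against 4137 and 4197 CPM in the naive libraries (-0.90 ± 0.22, adjusted p = 0.004) and B2m at 1329 and 1604 CPM in the Treg libraries, against 2506 and 3442 CPM in the naive libraries (-1.02 ± 0.24, adjusted p = 0.00284), and both calls were lost without the first Treg library (adjusted p = 0.0778 for H2-K1 and 0.0756 for B2m). Without that library 10 of the 26 genes were lower.

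**Figure D3:**
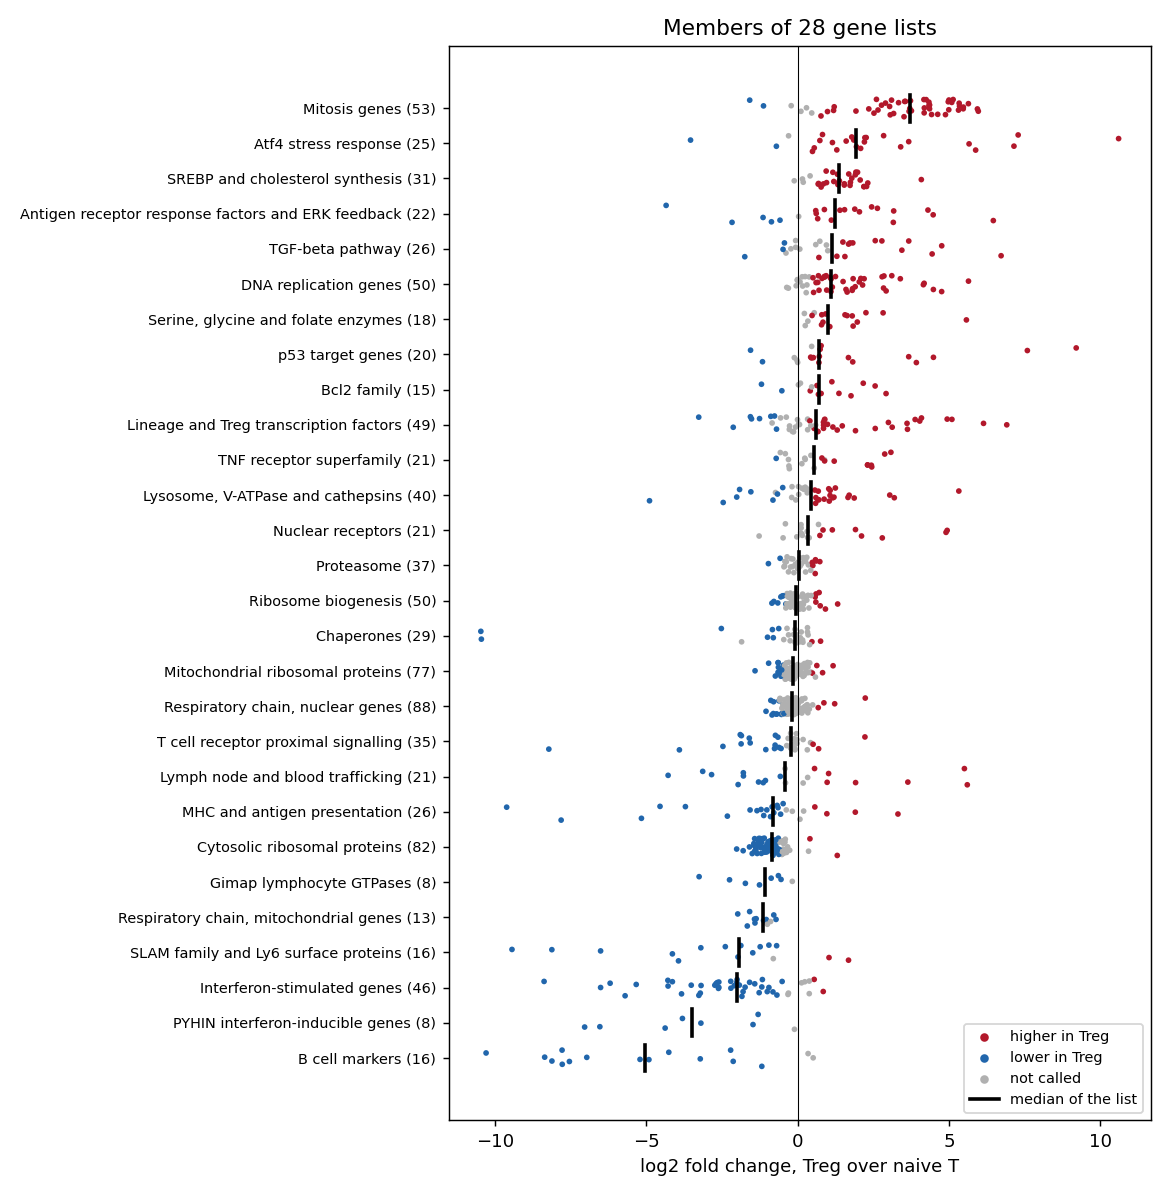
Log2 fold change of Treg over naive cells for the members of 28 gene lists, sorted by their median (black bar), with the number of kept members in brackets. Red points were called higher in Treg cells, blue points lower and grey points not called; mitosis genes lie furthest right, and PYHIN genes and B cell markers furthest left.

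Cell division genes were higher in Treg cells. Of 53 mitosis genes 47 rose and 2 fell, with a median of 3.71, and of 50 DNA replication genes 38 rose and 0 fell at the threshold, with a median of 1.10. By DESeq2 too 38 rose and 0 fell, and 0 replication genes were lower at an unadjusted p under 0.05. The absence of falls did not hold in every fit with 1 library left out, where the median of the replication genes ranged from 0.91 to 1.36. Ube2c, which marks mitotic proteins for destruction, stood at 28.6 and 45.2 CPM in the Treg libraries, against 0.833 and 0.342 CPM in the naive libraries (5.94 ± 0.34, adjusted p = 5.26e-09), and the kinesin Kif18b at 14.8 and 23.4 CPM in the Treg libraries, against 0.32 and 0.273 CPM in the naive libraries (5.97 ± 0.36, adjusted p = 8.47e-09). Aurkb, a kinase of chromosome segregation, stood at 23.03 and 33.8 CPM in the Treg libraries, against 0.641 and 0.478 CPM in the naive libraries (5.64 ± 0.30, adjusted p = 1.91e-09). Library 5 was the higher of the Treg libraries for each of these 3 genes. All 3 were lower in Treg than in Th17 cells, Aurkb with a log2 fold change of -2.37 ± 0.19, adjusted p = 2.32e-07 (Treg over Th17). Pttg1, securin, and the condensin gene Smc4 fell by 1.59 and 1.13. Among replication genes, Mcm10 rose to 16.2 and 27.6 CPM in the Treg libraries, against 0.32 and 0.547 CPM in the naive libraries (5.65 ± 0.36, adjusted p = 1.59e-08), Cdc6, which loads the helicase, rose by 4.18, and Pcna, the polymerase clamp, stood at 269 and 348 CPM in the Treg libraries, against 209 and 312 CPM in the naive libraries and did not pass the test (0.25 ± 0.21, adjusted p = 0.371).

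Cell cycle control genes rose in 21 and fell in 4 of 32. Cdkn1a, the cell cycle inhibitor p21, rose to 145 and 113 CPM in the Treg libraries, against 0.833 and 0.478 CPM in the naive libraries (7.59 ± 0.28, adjusted p = 7.85e-11), and stood at 487 and 544 CPM in Th17 cells. Cdkn1b, the inhibitor p27 of resting cells, fell to 167 and 164 CPM in the Treg libraries, against 295 and 332 CPM in the naive libraries (-0.92 ± 0.16, adjusted p = 0.000351). Cdk6 stood at 165 and 171 CPM in the Treg libraries, against 25.9 and 19.3 CPM in the naive libraries (2.89 ± 0.18, adjusted p = 1.32e-08), while its partner Ccnd2 stood at 461 and 516 CPM in the Treg libraries, against 439 and 445 CPM in the naive libraries and did not pass the test (0.14 ± 0.18, adjusted p = 0.533). E2f1, which drives S phase genes, and the repressors E2f7 and E2f8 rose by 2.84, 4.95 and 4.95.

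Promoters of mitosis genes often carry a CHR element, TTTGAA, through which the DREAM complex silences them in resting cells. It was found in 15 of 43 promoters of the list (34.9%), against 10.8% of 9946 promoters, and the CCAAT box was found in 32 of the 43 (74.4%), against 36.5%. Shown are 3 called genes with large log2 fold changes and a CHR in the last 150 bases. Each line gives these 150 bases, with the element in capitals on either strand. The Ube2c bases lie at chr2:164769779-164769928 and those of Espl1 at chr15:102296143-102296292, both on the plus strand, and those of Kif2c at chr4:117178773-117178922 on the minus strand.
Ube2c: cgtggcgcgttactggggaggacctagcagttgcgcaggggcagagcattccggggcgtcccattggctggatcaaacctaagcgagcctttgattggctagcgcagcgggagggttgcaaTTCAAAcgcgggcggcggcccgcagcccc
Espl1: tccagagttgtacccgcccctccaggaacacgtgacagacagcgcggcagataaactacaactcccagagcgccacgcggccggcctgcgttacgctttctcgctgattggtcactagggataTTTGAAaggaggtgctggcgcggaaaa
Kif2c: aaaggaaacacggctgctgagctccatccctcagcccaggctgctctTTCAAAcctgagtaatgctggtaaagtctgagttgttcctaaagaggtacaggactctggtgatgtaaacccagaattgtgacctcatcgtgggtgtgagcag
In Ube2c and Espl1 the element ends 24 and 22 bases before the start, and in Kif2c it lies further away. Espl1, the separase that parts sister chromatids, stood at 28.02 and 43.6 CPM in the Treg libraries, against 1.09 and 0.683 CPM in the naive libraries (5.32 ± 0.30, adjusted p = 4.22e-09). Kif2c, a kinesin that shortens microtubules, stood at 18.1 and 23.03 CPM in the Treg libraries, against 0.577 and 0.615 CPM in the naive libraries (5.09 ± 0.28, adjusted p = 2.78e-09).

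Genes that p53 can induce rose in 14 and fell in 2 of 20, with a median of 0.71. Perp, a membrane protein induced by p53, had 21.4 and 26.3 CPM in Treg cells, against 0 and 0.0683 CPM in naive cells, a ratio of 723 (95% counting interval 129.5 to 28600.0, adjusted p = 3.22e-09), and Phlda3, an inhibitor of Akt, stood at 21.2 and 19.1 CPM in the Treg libraries, against 1.03 and 0.752 CPM in the naive libraries (4.49 ± 0.25, adjusted p = 3.5e-09). Mdm2, which marks p53 for destruction and is itself a p53 target, stood at 109 and 102 CPM in the Treg libraries, against 108 and 103 CPM in the naive libraries, and the types overlapped (-0.0001 ± 0.15, adjusted p = 0.9996). Btg2, an antiproliferative gene of resting cells, fell by 1.16. Without the first Treg library 9 of the p53 targets and 6 of the Bcl2 family rose. In the Bcl2 family both sides rose, 10 of 15 in all, while 2 fell (0 without either Treg library or under total count scaling). Bcl2, which protects cells, stood at 645 and 655 CPM in the Treg libraries, against 329 and 264 CPM in the naive libraries (1.13 ± 0.18, adjusted p = 0.000123), and the death-promoting Pmaip1 and Bmf stood at 30.98 and 32.7 CPM in the Treg libraries, against 4.42 and 3.96 CPM in the naive libraries (2.92 ± 0.19, adjusted p = 2.17e-08) and at 47.9 and 27.3 CPM in the Treg libraries, against 9.93 and 6.76 CPM in the naive libraries (2.17 ± 0.27, adjusted p = 1.28e-05). Bcl2l11, the death-promoting protein Bim, stood at 68.1 and 60.2 CPM in the Treg libraries, against 68.8 and 57.3 CPM in the naive libraries, and the types overlapped (0.02 ± 0.28, adjusted p = 0.953).

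Myc rose to 374 and 305 CPM in the Treg libraries, against 88.1 and 90.6 CPM in the naive libraries (1.93 ± 0.17, adjusted p = 3.82e-07), but genes of ribosome assembly, which Myc is known to drive, moved in both directions: 7 of 50 rose, 7 fell (3 and 1 without the first Treg library, 11 and 2 under total count scaling, 5 and 2 without the second Treg library, 6 and 3 without the second naive library) and the median was -0.06, which was 0.12 under total count scaling. Ncl, the nucleolar protein nucleolin, stood at 782 and 949 CPM in the Treg libraries, against 752 and 898 CPM in the naive libraries, and the types overlapped (0.07 ± 0.20, adjusted p = 0.81). The genes of the cytosolic ribosome itself were lower in 62 of 82 and higher in 2, with a median of -0.84. Rps27 fell by 2.02 and Rps29 by 1.80, while Rps27l, a paralog that p53 can induce, rose by 1.31. The 85 listed genes of the cytosolic ribosome, 82 of them kept, summed to 77710 and 90370 CPM in the Treg libraries, against 123000 and 180500 CPM in the naive libraries. Without the first or the second Treg library 24 or 40 of them were lower, and without the first or the second naive library 74 or 37. The 13 respiratory chain genes of the mitochondrial genome had a median of -1.13, and 10 of them fell (6 without the first Treg library), while the 88 kept nuclear genes of the chain and its assembly factors had a median of -0.18, with 4 higher and 11 lower. The nuclear genes' direction was not stable: under total count scaling 11 were higher and 5 lower, the number lower was 1 without the first Treg library, 32 without the first naive library and 2 without the second, which left 8 higher. Eif4ebp1, an inhibitor of cap-dependent translation, rose to 55.9 and 61.7 CPM in the Treg libraries, against 4.74 and 7.99 CPM in the naive libraries (3.21 ± 0.24, adjusted p = 6.36e-08).

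The Atf4 response, which cells mount when amino acids run short or the integrated stress response is on, was higher. Of 25 kept genes 22 rose and 2 fell, with a median of 1.94, although Atf4 mRNA itself stood at 214 and 228 CPM in the Treg libraries, against 235 and 310.0 CPM in the naive libraries and did not pass the test (-0.30 ± 0.18, adjusted p = 0.188), though it was called lower without the first naive library (adjusted p = 0.0395). Chac1, which degrades glutathione, had no count in naive cells, stood at 12.03 and 10.7 CPM in the Treg libraries and was at least 57.2-fold higher. Nupr1, a small stress-induced chromatin protein, stood at 18.2 and 26.3 CPM in the Treg libraries, against 0.128 and 0.752 CPM in the naive libraries (5.67 ± 0.49, adjusted p = 3.05e-07). Slc6a9, a glycine transporter, stood at 21.6 and 14.4 CPM in the Treg libraries, against 0.32 and 0.273 CPM in the naive libraries (5.88 ± 0.42, adjusted p = 4.66e-08). Trib3, a pseudokinase induced by Atf4, rose by 2.84. Ppp1r15a, which reverses the stress response and is also an immediate early gene, fell to 33.8 and 23.6 CPM in the Treg libraries, against 309 and 359 CPM in the naive libraries (-3.54 ± 0.20, adjusted p = 3.5e-09). Of 37 aminoacyl-tRNA synthetases, which charge tRNA with amino acids, 12 rose and 3 fell, against 17 and 2 under total count scaling. The share called, 40.5%, was below the 45.7% of all kept genes. Their median was 0.20, and lay between 0.15 and 0.24 with 1 library left out. All 12 that rose are cytosolic enzymes or shared, led by Aars at 1.75 ± 0.19, adjusted p = 4.13e-06.

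Atf4 binds, with C/EBP partners, to an element of the form TGATGNAA. It was in 6 of 23 promoters of this list (26.1%), against 1.98% of 9946 promoters. All 6 genes with the element were called, and so were 16 genes whose promoters lacked it. Shown are 3 genes with large log2 fold changes and the element in the last 150 bases. The element is in capitals on either strand. The Slc7a11 bases lie at chr3:50443614-50443763, those of Asns at chr6:7693210-7693359 and those of Nupr1 at chr7:126625471-126625620, all on the minus strand.
Slc7a11: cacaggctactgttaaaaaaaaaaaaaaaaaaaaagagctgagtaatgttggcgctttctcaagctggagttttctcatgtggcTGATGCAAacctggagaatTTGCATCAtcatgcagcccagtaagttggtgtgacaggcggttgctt
Asns: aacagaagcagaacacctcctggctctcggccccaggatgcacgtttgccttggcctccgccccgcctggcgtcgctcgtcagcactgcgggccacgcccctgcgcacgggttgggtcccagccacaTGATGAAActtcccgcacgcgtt
Nupr1: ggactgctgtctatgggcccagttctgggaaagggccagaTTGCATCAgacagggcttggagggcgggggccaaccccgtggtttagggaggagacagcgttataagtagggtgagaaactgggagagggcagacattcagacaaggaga
Slc7a11, the cystine importer, holds 2 elements that face each other. It had 0.851 and 1.41 CPM in the Treg libraries and no count in naive cells, at least 5.68-fold higher.

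Small counts stood behind the other motifs searched on both strands. The E2F sites TTTCCCGC and TTTGGCGC were each in 3 of 41 promoters of DNA replication genes (7.32%), against 1.81% and 0.865% of 9946 promoters. The sterol response element was in 1 of 22 promoters of sterol genes (4.55%), against 0.975%, and the antioxidant response element core in 5 of 23 promoters of Nrf2 genes (21.7%), against 12%. The E-box bound by Myc, CACGTG, was in 4 of 43 promoters of ribosome assembly genes.

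**Figure D4:**
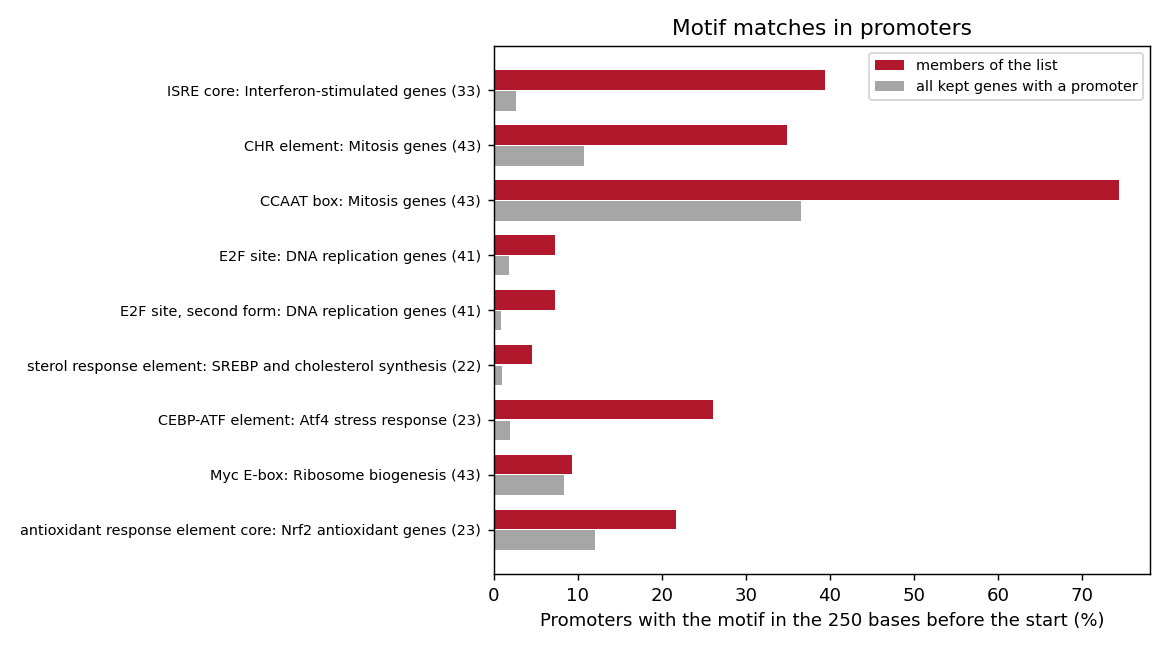
Share of promoters with a motif in the 250 bases before the start, in percent, for the members of a list (red, with the number of promoters in brackets) and for 9946 kept genes (grey). The red bar is longer than the grey one for all 9 pairs of motif and list, from 39.4% against 2.71% for the ISRE core to 9.30% against 8.34% for the Myc E-box.

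Serine, glycine and folate enzymes, which feed one-carbon units into nucleotides, rose in 14 of 18 and fell in 0 at the threshold, by edgeR and by DESeq2. At an unadjusted p under 0.05, 0 of them were lower. Shmt2, which makes glycine in mitochondria, stood at 337 and 345 CPM in the Treg libraries, against 88.1 and 85.7 CPM in the naive libraries (1.97 ± 0.18, adjusted p = 4.49e-07). Gcsh, the carrier protein of glycine cleavage, stood at 66.6 and 103 CPM in the Treg libraries, against 10.4 and 13.5 CPM in the naive libraries (2.82 ± 0.23, adjusted p = 1.83e-07). Phgdh, the first enzyme of serine synthesis, rose by 1.56. Sterol genes under SREBP control rose in 27 of 31 and fell in 0 at the threshold, also by DESeq2, and 0 were lower at an unadjusted p under 0.05. Their median was 1.38. Sqle, an oxygenase of the pathway, stood at 86.1 and 106 CPM in the Treg libraries, against 17.2 and 21.3 CPM in the naive libraries (2.32 ± 0.20, adjusted p = 2.46e-07). Insig1, a feedback brake, rose by 1.92.

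Fatty acid handling rose in 16 and fell in 3 of 30 (0 without the first Treg or the first naive library, 1 without the second Treg library and 1 under total count scaling). Acsl6, which activates long-chain fatty acids, stood at 131 and 133 CPM in the Treg libraries, against 2 counts in the naive libraries, a ratio of 1994 (95% counting interval 552 to 16470.0, adjusted p = 1.86e-10). It was also above Th17 cells, which had 4.84 and 2.78 CPM (Treg over Th17 5.11 ± 0.26, adjusted p = 2.28e-09). Acsl3, of the same family, stood at 67.8 and 69.2 CPM in the Treg libraries, against 12.8 and 16.3 CPM in the naive libraries (2.23 ± 0.19, adjusted p = 2.15e-07). Cpt1a, which lets fatty acids into mitochondria, rose by 1.38. Among mitochondrial enzymes 15 of 33 rose and 3 fell (1 without the first Treg library, 5 without the first naive library). Pcx, pyruvate carboxylase, stood at 36.2 and 36.1 CPM in the Treg libraries, against 2.56 and 2.39 CPM in the naive libraries (3.86 ± 0.24, adjusted p = 8.96e-09). Gls2, a glutaminase, stood at 4.48 and 4.11 CPM in the Treg libraries, against 0.32 and 0.0683 CPM in the naive libraries (4.39 ± 0.49, adjusted p = 4.75e-06). The kinases that shut pyruvate dehydrogenase diverged. Pdk1 fell to 99.2 and 113 CPM in the Treg libraries, against 454 and 383 CPM in the naive libraries (-1.98 ± 0.20, adjusted p = 1.86e-06), Pdk2 rose by 1.65, and Pdk4 had no count in naive cells and was at least 6.03-fold higher.

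Metal handling genes rose in 9 and fell in 4 of 23. Mt1, a metallothionein that binds zinc and copper, stood at 62.5 and 68.4 CPM in the Treg libraries, against 0.256 and 0.547 CPM in the naive libraries (7.34 ± 0.30, adjusted p = 2.04e-10). Slc39a8, a zinc importer, stood at 136 and 125 CPM in the Treg libraries, against 4.93 and 4.44 CPM in the naive libraries (4.80 ± 0.19, adjusted p = 1.86e-10). Tfrc, the transferrin receptor, rose by 1.33 and Fth1, the ferritin heavy chain, fell by 1.08. Slc40a1, the iron exporter and a gene of macrophages, had 3 counts in Treg cells and 254 in naive cells, a ratio of 0.00989 (95% counting interval 0.00202 to 0.0292). Antioxidant genes under Nrf2 rose in 11 and fell in 4 of 27, with 7 higher without the first Treg library and 8 lower without the first naive library. Srxn1, which repairs peroxiredoxins, stood at 8.17 and 5.30 CPM in the Treg libraries, against 0.192 and 0.342 CPM in the naive libraries (4.63 ± 0.49, adjusted p = 2.62e-06). Txnip, which blocks thioredoxin and glucose uptake, fell to 219 and 285 CPM in the Treg libraries, against 973 and 1069.9 CPM in the naive libraries (-2.02 ± 0.33, adjusted p = 0.000159).

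Lysosome genes rose in 20 and fell in 8 of 40 (5 without either Treg library), with a median of 0.44. Ctsw, a cathepsin of T and natural killer cells, stood at 662 and 667 CPM in the Treg libraries, against 69.5 and 75.8 CPM in the naive libraries (3.19 ± 0.18, adjusted p = 3.5e-09). In Th17 cells it stood at 101 and 119 CPM. Lamp1, a membrane protein of lysosomes, stood at 275 and 290.1 CPM in the Treg libraries, against 129.9 and 144 CPM in the naive libraries (1.04 ± 0.16, adjusted p = 7.84e-05). Cd63, a tetraspanin of late endosomes, stood at 24.1 and 22 CPM in the Treg libraries, against 0.0641 and 1.09 CPM in the naive libraries (5.33 ± 0.53, adjusted p = 1.35e-06). Ctsh, a protease of antigen-presenting cells, fell by 4.90 together with the myeloid markers. Of 37 proteasome genes 29 did not pass the test, 6 were higher and 2 lower. The immunoproteasome subunit Psmb8 stood at 261 and 315 CPM in the Treg libraries, against 243 and 334 CPM in the naive libraries, with the types overlapping (0.0006 ± 0.18, adjusted p = 0.998), while Psmb9, of the same kind, stood at 86.8 and 126 CPM in the Treg libraries, against 186 and 229.7 CPM in the naive libraries (-0.97 ± 0.19, adjusted p = 0.000817). Under total count scaling 13 were higher and 1 lower, without the first naive library 4 were higher and 10 lower, without the second 12 and 1, and without the first Treg library 2 and 1 and without the second 3 and 2.

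Among called genes of above-median expression, the inducible HSP70 genes had the most negative log2 fold changes. Hspa1b stood at 1.70 and 0.757 CPM in the Treg libraries, against 1799.7 and 1652 CPM in the naive libraries (-10.46 ± 0.34, adjusted p = 5.73e-11). Hspa1a, a near-identical copy that shares its reads, stood at 0.851 and 0 CPM in the Treg libraries, against 635 and 570.2 CPM in the naive libraries. Their cofactor Dnajb1 stood at 88.4 and 96.1 CPM in the Treg libraries, against 444 and 616 CPM in the naive libraries (-2.52 ± 0.19, adjusted p = 6.88e-08). Of all 29 chaperones 7 fell, 2 rose and 20 were not called, whereas under total count scaling 6 fell and 6 rose, and without the second naive library 5 fell and 3 rose. Among those not called was Hsp90ab1, which stood at 2208 and 2277 CPM in the Treg libraries, against 1958 and 2330.5 CPM in the naive libraries (0.06 ± 0.22, adjusted p = 0.834). In Th17 cells Hspa1b stood at 5.39 and 4.37 CPM, below the naive libraries as well. Among genes of the unfolded protein response 8 rose and 6 fell of 28, with 5 higher and 3 lower without the first Treg library, 5 and 4 without the second and 6 and 3 without the second naive library. Xbp1, its transcription factor, stood at 182 and 191 CPM in the Treg libraries, against 49.3 and 57.7 CPM in the naive libraries (1.80 ± 0.16, adjusted p = 3.35e-07). Hspa5, the chaperone BiP, stood at 353 and 371 CPM in the Treg libraries, against 461 and 573 CPM in the naive libraries (-0.51 ± 0.18, adjusted p = 0.0332), a call that was lost when either Treg library was left out (adjusted p = 0.203 and 0.134).

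Enzymes of DNA methylation and Polycomb repression rose in 12 and fell in 6 of 28. Uhrf1, which recruits the maintenance methyltransferase at replication, stood at 78.3 and 114 CPM in the Treg libraries, against 6.09 and 4.65 CPM in the naive libraries (4.16 ± 0.23, adjusted p = 3.5e-09). Ezh2, which methylates histone H3 at repressed genes, stood at 98.1 and 109 CPM in the Treg libraries, against 35.4 and 39.9 CPM in the naive libraries (1.46 ± 0.17, adjusted p = 6.62e-06). Its paralog Ezh1 stood at 107 and 89.9 CPM in the Treg libraries, against 99.3 and 84.5 CPM in the naive libraries, and the types overlapped (0.10 ± 0.17, adjusted p = 0.676). Tet1, which oxidises methylcytosine, fell to 7.55 and 13.8 CPM in the Treg libraries, against 52.3 and 42.4 CPM in the naive libraries (-2.15 ± 0.33, adjusted p = 0.000111). Without the second Treg library 3 of the list fell.

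The genes with the largest changes at above-median expression came from many families. Ndrg4, a member of the N-myc downstream regulated family known from heart and nerve cells, stood at 239.8 and 180.1 CPM in the Treg libraries, against 3 counts in the naive libraries, a ratio of 2109 (95% counting interval 721 to 10230.0, adjusted p = 5.73e-11). Wnt10b, a secreted Wnt ligand, stood at 84.2 and 98.3 CPM in the Treg libraries, against 0.256 and 0.342 CPM in the naive libraries (8.23 ± 0.40, adjusted p = 1.01e-09). Adgrg1, the adhesion receptor GPR56, stood at 76.5 and 65.8 CPM in the Treg libraries, against 0.192 and 0.273 CPM in the naive libraries (8.22 ± 0.40, adjusted p = 9.31e-10). Akr1c18, which inactivates progesterone, stood at 152 and 125 CPM in the Treg libraries, against 0.384 and 0.683 CPM in the naive libraries (8.01 ± 0.29, adjusted p = 6.75e-11), and was low in Th17 cells too, at 0.381 and 0.218 CPM. Lama5, a laminin chain of basement membranes, rose by 7.90. In the other direction, Dapl1, a small protein of resting lymphocytes, stood at 0.113 and 0.27 CPM in the Treg libraries, against 93.4 and 118 CPM in the naive libraries (-9.04 ± 0.33, adjusted p = 7.22e-11). Sema4a, a semaphorin, stood at 3.40 and 4.05 CPM in the Treg libraries, against 218 and 179 CPM in the naive libraries (-5.73 ± 0.24, adjusted p = 2.57e-10). Ggt5, which cleaves leukotriene C4, fell by 5.88.

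Of 1260 long non-coding RNA genes 191 were higher and 278 lower, 37.2% in all, beside 48.4% of 11825 protein-coding genes. The share called also went with level, at 36.7% of the 2947 kept genes of lowest mean expression and 51.6% of the 2946 highest. The part of level in the lower share of long non-coding RNAs was not tested. Mirt1 fell to 0.34 and 0.108 CPM in the Treg libraries, against 47.99 and 27.3 CPM in the naive libraries (-7.36 ± 0.48, adjusted p = 1.62e-08), and lies at chr19:53441212-53464796. Gm19585, at chr17:51986415-52163976, stood at 0.284 and 0.703 CPM in the Treg libraries, against 32.7 and 46.1 CPM in the naive libraries (-6.29 ± 0.35, adjusted p = 3.22e-09). In Th17 cells it stood at 31.2 and 37.3 CPM. A530021J07Rik, at chr7:83061783-83179429, had 1 count in Treg cells and 606 in naive cells, a ratio of 0.00138 (95% counting interval 3.49e-05 to 0.00773). In the other direction, Gm17322, at chr9:57998041-58007451, had no count in naive cells and 8.74 and 9.73 CPM in the Treg libraries, at least 46.5-fold higher, and Gm35037, at chr7:3451357-3475020, was at least 37.1-fold higher with no count in naive or Th17 cells. Coordinates are those of the deposited table, in mouse build mm10 as named in the submitters' processing notes.

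The long non-coding RNA with the largest rise, Gm53, lies at chr11:96251105-96264868 in the HoxB cluster, a row of homeobox genes that pattern the body axis. Its neighbours were looked at after this was seen, so they are a description. Gm53 had 227 and 118 counts in the Treg libraries, against 0 in both naive libraries, and 22 and 2 counts in the Th17 libraries. Hoxb4, known from blood stem cells, stood at 38.2 and 26 CPM in the Treg libraries, against 2.11 and 1.44 CPM in the naive libraries (4.17 ± 0.32, adjusted p = 7.95e-08). Hoxb3 had 91 and 80 counts in the Treg libraries, against 1 and 0 in the naive libraries, and Hoxb9 had 38 and 27 in the Treg libraries, against 0 in both naive libraries, though its adjusted p was 0.0507 by DESeq2. The other 7 Hoxb protein genes did not reach the count minimum, none having more than 3 counts in any library. The hairpin genes Mir10a and Mir196a-1 had 35 and 31 counts and 33 and 20 counts in the Treg libraries, against 0 in both naive libraries. These are mRNA libraries, so counts at a hairpin gene come from longer transcripts and do not measure the mature microRNA. The genes of the cluster were picked by name, not by position, so others in the interval may be missing. All 8 kept genes so picked stood higher in both Treg libraries than in both naive libraries. Except for Hoxb4, they reached the count minimum through the Treg libraries alone, so for them the filter fixed this outcome. Over all kept genes, the libraries of the 2 types did not overlap in 73.1%, in either direction. The mature miR-10a-5p, a microRNA known from Treg cells, is shown because its gene lies between Hoxb9 and Hoxb4, at chr11:96317186-96317208 on the plus strand of GRCm38.p6 in RefSeq, with the seed, bases 2 to 8, in capitals.
miR-10a-5p: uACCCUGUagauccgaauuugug

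**Figure D5:**
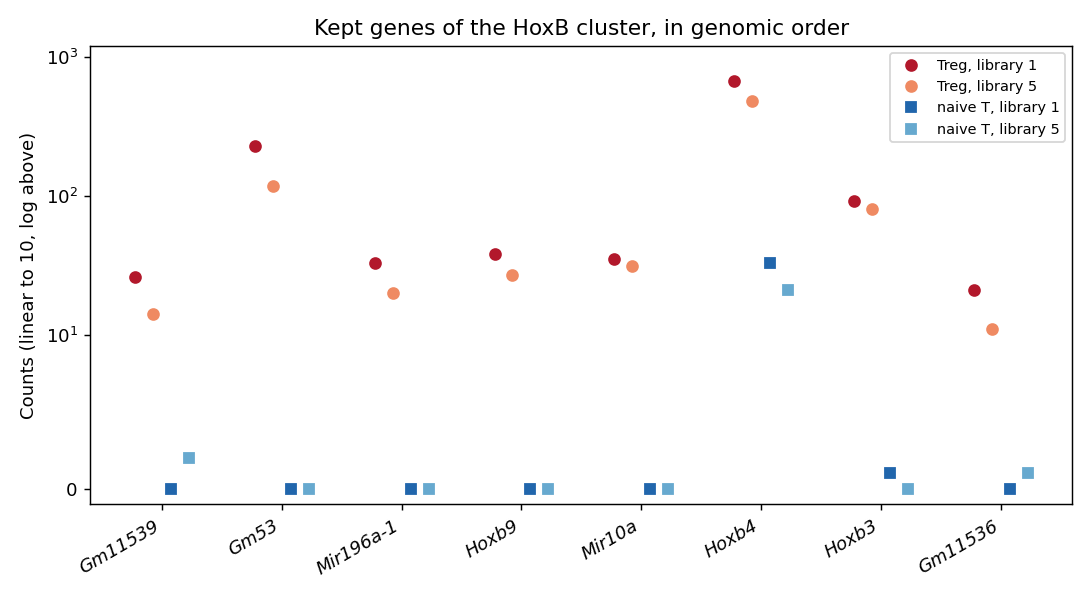
Counts in each library (vertical, linear to 10 and log above) of 8 kept genes of the HoxB cluster, picked by name, in genomic order. Treg libraries are red and orange circles and stand at 11 counts or more; naive libraries are blue squares and stand at 33 or fewer for Hoxb4 and at 2 or fewer for the other genes.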

How the data were processed

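The deposited count table gave raw counts per gene for 6 libraries, with 6 FPKM columns beside them that were not used. Per the submitters' processing notes, cutadapt, STAR, DESeq2 and the mm10 build were used by the authors, with versions not given in the sources used here. Per the labels' protocols, RNA came from a Qiagen micro kit and libraries from a SMARTER mRNA kit. Log2 fold changes and p-values of the authors' own fit stand in the authors' deposited table and were used only for the overlap of calls and for the value of Cd8b1. Whether counting used strand is not given.

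Here edgeR 4.0.16 in R 4.3.3 was run on the counts as deposited: TMM scaling, 1 mean per cell type over 6 libraries, quasi-likelihood F-test with 3 residual degrees of freedom and Benjamini-Hochberg adjustment over 14732 genes. The column numbers did not match the replicate numbers of the sample titles, so columns were assigned to cell types only. 256 kept genes had a second-highest count of exactly 10, and 253 left out had 9. The filter was passed through the Treg libraries alone by 833 genes and through the naive libraries alone by 563. Intervals and floors cover counting error only. Limma 3.58.1 and DESeq2 1.42.0 served as alternatives, and the test was checked on simulated counts.

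The members and gene lists were chosen with earlier results of these data known. Genes named are key members marked in the lists, called members with up to 4 of the largest changes per list and direction at a mean of 1 CPM or more, the 12 largest changes each way at above-median expression and the 6 largest among long non-coding RNAs. Not every gene this rule allows is named, and some are not reported here. Of 182 kept key genes 88 were higher, 60 lower and 34 not called, and 61, 31 and 16 of these are named, so called genes are named more often than uncalled ones. Cd8b1, given only by the authors' fit, is not counted here or among the called genes named below. Named outside this rule, after their values were seen, were Ahr, Bank1, Cd27, Cd28, Espl1, Hbb-bt, Hivep3, Hsp90ab1, Ifit1, Ighm, Il3, Kif2c, Max, Mnt, Oas2, Pdk2, Pdk4, Prkcq, Runx2, Sh2d1a, Sox4, Zfp36l2 and the HoxB genes.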

Additional observations from a re-analysis of the deposited data

How the results depend on the processing

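Across the alternatives run, 227 of the 240 called genes named kept their direction and call, judged wherever the tool gave an adjusted p. The number of genes called was 6731 with RLE scaling (3618 higher, 3113 lower), 6725 with total count scaling (4478 higher, 2247 lower), 6224 with DESeq2, 6799 with limma-voom, 6469 with only the 4 libraries in the fit, 7031 without the filter on low counts and 6748 with filterByExpr. Between 87.1% and 99.8% of the main calls were shared in direction by these. Leaving out 1 library gave between 4693 and 6384 called genes, between 2736 and 3481 higher, between 1957 and 2903 lower and between 3566 and 4077 called with at least 2-fold change. The lowest count of lower genes, 1957, came without the first Treg library, and 68.7% of the main calls were shared then. With 1 library of a type left, that library is assumed to vary like the others. Uncalled genes near a log2 fold change of 0 changed sign. Under total count scaling these were Foxo1 (0.09), Gata3 (0.01), Zap70 (0.06), Smad7 (0.11) and Mdm2 (0.18). Mdm2 stood at 0.03 without the filter on low counts. Psmb8 stood at -0.0016 with RLE scaling, -0.0017 with DESeq2, -0.02 with only the 4 libraries in the fit and -0.0011 with filterByExpr. With 1 library left out the ranges were -0.27 to 0.13 for Foxo1, -0.26 to 0.03 for Zap70, -0.06 to 0.20 for Hsp90ab1, -0.01 to 0.56 for Pcna, -0.27 to 0.17 for Smad7, -0.04 to 0.04 for Mdm2, -0.21 to 0.25 for Psmb8, -0.10 to 0.16 for Bcl2l11, -0.18 to 0.21 for Dusp6, -0.03 to 0.22 for Ezh1 and -0.08 to 0.20 for Ncl. The replicate block, with the column number as a term, gave 6955 called genes (3733 higher, 3222 lower). Whether the numbers pair the libraries is not given in the labels. Same-numbered Treg and naive libraries deviated together at r = 0.146, Treg with Th17 at 0.0421 and naive with Th17 at 0.00515. With 2 libraries per type these correlations cannot decide it. Both Treg libraries and both naive libraries are few, so the spread rests on 3 residual degrees of freedom.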

Other observations

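The dimerisation network around Myc, in which Mxd and Mnt proteins compete with Myc for their shared partner Max, was higher in 8 and lower in 1 of 12 kept genes, with a median of 0.89. Mxd1, which antagonises Myc in cells that leave the cycle, stood at 170.1 and 134 CPM in the Treg libraries, against 37.03 and 28.8 CPM in the naive libraries (2.21 ± 0.18, adjusted p = 2.15e-07, edgeR quasi-likelihood test), and was lower than in Th17 cells, which had 273 and 257 CPM. Mxd4, of the same family, stood at 235 and 191 CPM in the Treg libraries, against 115 and 100.4 CPM in the naive libraries (0.98 ± 0.18, adjusted p = 0.000527). Mlx, the partner of the sugar-sensing factors of the network, was the member that fell, with 42.04 and 37.8 CPM in the Treg libraries, against 63.6 and 82.9 CPM in the naive libraries (-0.87 ± 0.17, adjusted p = 0.000906).

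Of 28 kept genes of nucleotide and polyamine synthesis 7 rose and 3 fell, 11 rose and 1 fell under total count scaling, and 1 fell without the first Treg or the second naive library and 5 without the first naive library. Odc1, the first enzyme of polyamine synthesis, stood at 192 and 234 CPM in the Treg libraries, against 49.7 and 55.6 CPM in the naive libraries (2.02 ± 0.19, adjusted p = 9.8e-07), and at 947 and 741 CPM in Th17 cells. Cad, which starts pyrimidine synthesis, stood at 161 and 206 CPM in the Treg libraries, against 64.5 and 47.7 CPM in the naive libraries (1.71 ± 0.20, adjusted p = 8.32e-06). Of 33 translation factors 9 rose and 4 fell, against 13 and 3 under total count scaling, 10 and 7 with DESeq2 and without the first naive library, and 6 and 1 without the first Treg library. Eif5a, whose activity needs a polyamine-derived side chain, stood at 946 and 1021 CPM in the Treg libraries, against 366 and 503 CPM in the naive libraries (1.18 ± 0.21, adjusted p = 0.000383).

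Among 321 kept Zfp genes 58 rose and 65 fell, with a median of -0.05, but under total count scaling 72 rose and 36 fell, with a median of 0.14. Without the first Treg library 43 rose and 30 fell and without the second 45 and 42. More rose than fell also without either naive library and without the filter on low counts. Zfp36, a protein that destabilises cytokine mRNA, stood at 57.9 and 34.7 CPM in the Treg libraries, against 361 and 366 CPM in the naive libraries (-2.97 ± 0.22, adjusted p = 5.99e-08), and its relative Zfp36l2 stood at 355 and 287 CPM in the Treg libraries, against 927 and 641 CPM in the naive libraries (-1.29 ± 0.21, adjusted p = 0.000147).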
